A study of Mus musculus with 18 samples.

Results

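Hypoxia-inducible factors (HIFs) and the hydroxylases that switch them off were followed in the mouse ventricle through 9 genes of 18193 with a probe set on the array. The genes were Egln1, Egln2, Egln3, Hif1an, Vhl, Hif1a, Epas1, Hif3a and Arnt, taken by their platform symbols, and they had 27 probe sets, of which 22 passed the filter on low signal. Each gene was represented by the probe set with the highest mean, called its main probe set, and all 9 main sets passed the filter. Ventricular myocardium from C57Bl/6J wild type mice (n = 4) was compared with that of 3 groups of ob/ob mice on the C57Bl/6J background, which carry a null leptin gene, overeat and become obese. All 3 ob/ob groups ate freely until the age of 6 months. For 1 further month they stayed on free feeding (untreated, n = 4), were calorie restricted, given only as much food as the leptin group ate (n = 5), or received recombinant mouse leptin from an osmotic mini-pump (n = 5). The sample labels give the wild type mice as 6 months old and the series text as 6 to 8 months. Each array is listed as its own sample, but nothing states that it came from its own mouse, so p-values speak only of the spread among these arrays.

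A HIF is a pair of basic helix-loop-helix proteins, an unstable alpha subunit and the stable partner Arnt. When oxygen, iron and 2-oxoglutarate are at hand, the Egln prolyl hydroxylases modify the alpha subunit, the Vhl protein then binds it and it is degraded. Hif1an is an asparaginyl hydroxylase that blocks the binding of co-activators to the alpha subunit, and Egln3 is itself a well known HIF target gene in many cell types.

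Promoter windows of 250 bases before the annotated start were taken from RefSeq (GRCm38.p6), which held a window for 8 of the 9 genes. The HIF core motif was searched as ACGTG or GCGTG on both strands, and a CACGTG counts on both. Of the 8 genes, 6 held it, against 38.6% of 32851 windows of the same length. That share counts windows, not genes, and was not matched for GC content (48% to 86% in the member windows). Enrichment of the motif was not tested. The windows of the genes that passed a test (Egln3 and Hif1an) and of Egln1, which was even across the groups, are given on the sense strand, 5′ to 3′, with motif matches in capitals. The Egln3 window is chr12:54203875-54204124 (minus strand), the Egln1 window chr8:124949255-124949504 (minus strand) and the Hif1an window chr19:44562604-44562853 (plus strand).
Egln3: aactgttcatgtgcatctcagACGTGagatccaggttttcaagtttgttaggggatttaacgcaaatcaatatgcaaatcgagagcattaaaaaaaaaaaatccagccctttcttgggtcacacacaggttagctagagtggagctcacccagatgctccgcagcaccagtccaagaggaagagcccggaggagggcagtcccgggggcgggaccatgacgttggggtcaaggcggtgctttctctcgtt
Egln1: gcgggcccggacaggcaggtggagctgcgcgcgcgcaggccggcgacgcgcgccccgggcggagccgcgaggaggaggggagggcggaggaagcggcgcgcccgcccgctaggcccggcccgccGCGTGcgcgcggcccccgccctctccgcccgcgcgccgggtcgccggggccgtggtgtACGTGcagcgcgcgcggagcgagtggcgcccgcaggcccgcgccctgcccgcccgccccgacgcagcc
Hif1an: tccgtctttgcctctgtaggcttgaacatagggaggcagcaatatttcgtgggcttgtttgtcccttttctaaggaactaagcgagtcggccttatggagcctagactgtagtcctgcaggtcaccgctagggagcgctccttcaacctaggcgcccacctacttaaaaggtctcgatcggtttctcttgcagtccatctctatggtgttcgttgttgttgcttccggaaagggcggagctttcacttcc
Egln3 had 1 match, 229 bases before the start. Egln1 had 2, at 126 and 68 bases before it. These letters are not in the Hif1an window.

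The arrays were alike in overall signal. Their medians lay between 22.3 and 31.8 (arbitrary units), and log2 correlations between arrays were 0.943 to 0.971. All 12 ventricular cardiomyocyte markers (Myh6, Tnnt2, Myl2 and others) were well detected on every array. Their summed signals were 66180 to 72642 in wild type and 72659 to 85205 in untreated hearts. Restricted hearts gave 75430 to 97806 and leptin treated hearts 65715 to 88575. Every untreated and every restricted array was thus above every wild type array. Limma called 0 of the 12 in any comparison, with 0 to 8 at an unadjusted p under 0.05. The 8 were in restricted against wild type hearts, and untreated against wild type had 1. Their part in the member results was not tested. Calorie restricted replicates 2 and 3 stood apart in atrial transcripts: their 10 atrial markers summed to 15973 and 16769, against 1379 to 4086 on the other 16 arrays. Values without these arrays stand beside the results of the calorie restricted group. Less RNA per cell and fewer cells of a type cannot be told apart in bulk tissue.

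Egln3, a prolyl hydroxylase that HIF itself induces, was the member with the widest range between groups. On its main probe set the wild type arrays read 747, 446, 449 and 527 and the untreated ob/ob arrays 929, 1172, 1307 and 1094. The calorie restricted arrays read 424, 510, 417, 523.5 and 587. The leptin arrays read 734, 601, 563, 1159 and 586. Every untreated ob/ob array was above every wild type and every calorie restricted array, while leptin replicate 4 lay inside the untreated range and the other 4 leptin arrays below it. The other Egln3 probe set had the same layout. Its untreated arrays read 514 to 915, its wild type arrays 286 to 330.1, its calorie restricted arrays 315 to 350.5 and its leptin arrays 283 to 674, with leptin replicate 4 again the highest of its group.

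**Figure D1:**
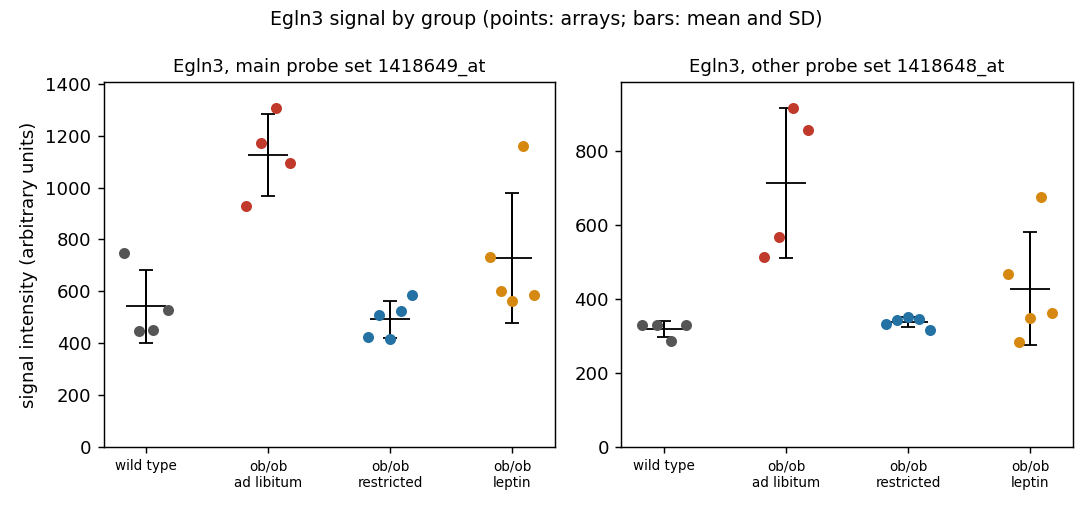
Signal of the 2 Egln3 probe sets (arbitrary units, linear axis from 0) by group, with 1 point per array and bars for the mean and SD. On both sets the 4 untreated ob/ob arrays sit above all wild type and all calorie restricted arrays, and 1 leptin array lies among them.

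In untreated ob/ob against wild type hearts, Egln3 was 2.10-fold higher (log2 change 1.07 ± 0.21, SE; limma adjusted p = 0.0443). The fold is on the log2(signal + 5.13) scale, as are all changes given here. It was the 1 member called at an adjusted p under 0.05, in a comparison that called 0.299% of all 13359 genes tested, 0.112% as higher and 0.187% as lower. The call is fragile, since its adjusted p rose to 0.0514 with a pseudocount of 1, to 0.0801 with no filter on low signal and to 0.153 with only these 2 groups in the fit. It was also lost without any 1 of untreated replicates 1 to 4 or wild type replicates 2, 3 and 4, with log2 changes of 0.99 to 1.23 when each array in turn was left out. Summed atrial markers ranged from 1379 to 3045 in the untreated and from 2126 to 4086 in the wild type group, with 0 of 10 called. With atrial markers as a covariate the Egln3 change was 0.91 (adjusted p = 0.119). Of the 12 macrophage markers 0 were called and 7 had an unadjusted p under 0.05, with a median change of -0.42. Their sums were 3034 to 3964 in untreated and 3389 to 6078 in wild type hearts. The 2 red blood cell markers tested had a median of -0.51, with 0 called. The part of macrophage and red blood cell transcripts in the Egln3 result was not tested.

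Calorie restriction lowered Egln3 in every fit run. Egln3 fell by 1.19 on the log2 scale against untreated ob/ob hearts (SE 0.20, adjusted p = 0.00242), to 0.439 of its level. All comparisons with untreated hearts use the same untreated arrays, so this fall and the difference of untreated from wild type hearts are not independent. Egln3 was again the 1 member called, where 5.43% of all genes were called, and the 1 member whose groups did not overlap, which 9.21% did. It was called in all 23 alternative fits, with changes of -1.45 to -0.92. Both probe sets passed when every set was tested on its own (adjusted p = 0.00306 and 0.00868). Without the 2 atrial-rich arrays the change was -1.13 (adjusted p = 0.0210), and with atrial markers as a covariate -0.92 (adjusted p = 0.0430). The 23 fits include those that leave out 1 array each and the fit with endothelial markers as a covariate. Of the 14 endothelial markers 2 were lower, with sums of 3657 to 4277 in restricted and 4423 to 5265 in untreated hearts. These sums did not overlap, so the endothelial fit cannot separate endothelial content from group. Fibroblast markers moved in the same comparison, with 7 of 11 lower and summed signals of 8159 to 10574 in restricted against 10655 to 11179 in untreated hearts. Of the 12 macrophage markers 3 were lower, with sums of 2157 to 3084 against 3034 to 3964. The part of fibroblast and macrophage transcripts in the Egln3 result was not tested.

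With leptin, the Egln3 change against untreated hearts was -0.67 ± 0.20 (95% interval -1.09 to -0.24), which limma did not call (adjusted p = 0.146). Here 0 members were called and 2 (Egln3 and Hif1an) had an unadjusted p under 0.05, with 0.644% of all genes called, 0.404% higher and 0.24% lower. No member's arrays were apart between these groups, which 5.34% of genes' were. The value depends on leptin replicate 4: without it the change was -0.85 (adjusted p = 0.0268). The restricted and leptin groups share the untreated controls, so their changes are set side by side and tested directly. Leptin against calorie restriction gave an Egln3 difference of 0.52 ± 0.19 (interval 0.12 to 0.92, adjusted p = 0.0838), and the groups overlapped. Without leptin replicate 4 that difference was 0.34, with the atrial covariate 0.33 (adjusted p = 0.362), with the endothelial covariate 0.91 (adjusted p = 0.0862) and without the 2 atrial-rich arrays 0.46 (adjusted p = 0.260). Endothelial marker sums did not overlap between these groups, so the endothelial fit cannot separate endothelial content from group. Against wild type, Egln3 differed by 0.40 with leptin (interval -0.026 to 0.82, adjusted p = 0.522) and by -0.12 with restriction (interval -0.54 to 0.31, adjusted p = 0.792), the latter -0.063 without the 2 atrial-rich arrays.

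Egln1, the main oxygen sensor of the family in most cells, was even across the groups. Its arrays ran from 2731 to 3660, with group means of 2906 ± 185 (SD) in wild type, 3136 ± 92.8 in untreated, 3087 ± 247 in restricted and 3200 ± 301 in leptin treated hearts. All groups overlapped. The 95% intervals of its log2 changes on the main set stayed between -0.20 and 0.31 in the 6 comparisons. The other Egln1 set was less precise, with changes of -0.28 to 0.33 and intervals from -0.73 to 0.76. Egln2, the third prolyl hydroxylase, read 223 to 314, and its group means lay between 247 ± 19.9 in wild type and 277 ± 24.9 in leptin treated hearts. Its intervals ran from -0.16 to 0.34.

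Hif1an, the asparaginyl hydroxylase, had a lower mean with leptin than with calorie restriction on its main probe set, but the call was fragile. Wild type arrays read 162, 202, 189.9 and 210.2, and untreated ob/ob arrays 185.5, 198, 212 and 242. Restricted arrays read 214, 241, 226, 189 and 236. Leptin arrays read 150.4, 137, 192, 199.6 and 166. The lowest restricted array (189) lay below the 2 highest leptin arrays, so the groups overlapped. The difference was -0.39 ± 0.11 (limma adjusted p = 0.0309), a signal 0.765 of that under restriction, and Hif1an was the 1 member called in a comparison that called 13.6% of all genes, 7.9% higher and 5.72% lower. In that comparison 10.9% of genes had arrays that did not overlap. The other Hif1an probe set above the filter gave -0.15 (limma adjusted p = 0.546) when every set was tested on its own. The call was lost without the 2 atrial-rich arrays (-0.33, adjusted p = 0.159) and when the mean of all its probe sets was used (-0.22, adjusted p = 0.373). The call did not hold with atrial markers as a covariate or with only these groups in the fit either. It was also lost without any 1 of restricted replicates 2, 3 and 5 or leptin replicates 1, 2 and 5, with changes of -0.45 to -0.32. Endothelial marker sums were 4673 to 5560 in leptin and 3657 to 4277 in restricted hearts. With endothelial markers as a covariate the Hif1an change was -0.48 (adjusted p = 0.163). The sums did not overlap, so that fit cannot separate endothelial content from group. Of the fibroblast markers 7 of 11 were higher with leptin, with sums of 10630.2 to 12642 against 8159 to 10574, and of the macrophage markers 8 of 12, with sums of 3629 to 5132 against 2157 to 3084, and their part in the result was not tested. Against untreated hearts, Hif1an differed by -0.31 with leptin (interval -0.56 to -0.055, adjusted p = 0.265) and by 0.079 with restriction (interval -0.17 to 0.33, adjusted p = 0.802), the latter 0.026 without the 2 atrial-rich arrays.

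Vhl, which carries hydroxylated alpha subunits to degradation, had its lowest mean in untreated ob/ob hearts (82.4 ± 9.61) and its highest in wild type (101 ± 13.4). The log2 difference was -0.28 with an interval of -0.59 to 0.020 (adjusted p = 0.530), and the groups overlapped. The other Vhl probe set had the opposite sign (0.15). Restricted hearts read 94.5 ± 16.4 and leptin treated hearts 88.9 ± 13.6.

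The alpha subunits showed no called change. Hif1a, the ubiquitous alpha subunit, read 442, 447, 432 and 280.4 in wild type hearts and 389.5, 492, 404 and 291 in untreated ones. Restricted arrays read 653, 409, 367, 449.9 and 358 and leptin arrays 266, 272, 338, 277 and 527. In the wild type and leptin groups 1 array lay far from the rest, low in the first and high in the second. Leptin against restriction gave -0.42 with an interval of -0.87 to 0.024 (adjusted p = 0.212), and the 3 Hif1a probe sets above the filter did not share a sign there, with changes of -0.42 to 0.21. The main set gave, without the 2 atrial-rich arrays, -0.54 (adjusted p = 0.233).

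Epas1 encodes the other major alpha subunit, which is prominent in endothelium. Its untreated ob/ob arrays read 2696, 2868, 2975 and 2824, below all 4 wild type arrays (3291, 3137, 3062 and 3160). Together with Egln3 it made 2 members whose untreated and wild type arrays did not overlap, which 7.05% of all genes did (3.65% higher and 3.41% lower). The difference was small (-0.15, interval -0.35 to 0.043, adjusted p = 0.618), and the second Epas1 probe set had the opposite sign (0.23). Restricted arrays read 3207, 3174, 2920, 3433 and 3884, a difference of 0.22 from untreated hearts (interval 0.032 to 0.41, adjusted p = 0.178), and 0.30 without the 2 atrial-rich arrays (adjusted p = 0.133). Leptin arrays read 3164, 3267, 3074, 3250 and 2558, with replicate 5 the low one.

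Hif3a, an alpha subunit whose short forms restrain the others, had a low and scattered signal. Its 18 arrays read 31.5 to 79.8, and group means were 60.6 ± 21.2 in wild type, 55.2 ± 14.6 in untreated, 65.4 ± 11.3 in restricted and 55.9 ± 14.7 in leptin treated hearts. Of its 6 probe sets 3 passed the filter, and intervals of its log2 changes reached from -0.71 to 0.75. Arnt, the shared partner, read 100.4 to 246 on its main set. Its group means lay between 150.4 ± 30.8 with leptin and 191 ± 38.8 in wild type, a difference of -0.34 (interval -0.73 to 0.045, adjusted p = 0.539). All 5 Arnt sets passed the filter, and in that comparison 2 of the 5 were positive, with changes of -0.34 to 0.11 and 0 called. In leptin against untreated hearts all 5 were negative, between -0.18 and -0.061, with 0 called. Without the 2 atrial-rich arrays, the changes of Egln1, Egln2, Hif1a, Hif3a, Vhl and Arnt in restricted against untreated hearts lay between -0.14 (Arnt) and 0.28 (Hif1a), and 0 were called.

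**Figure D2:**
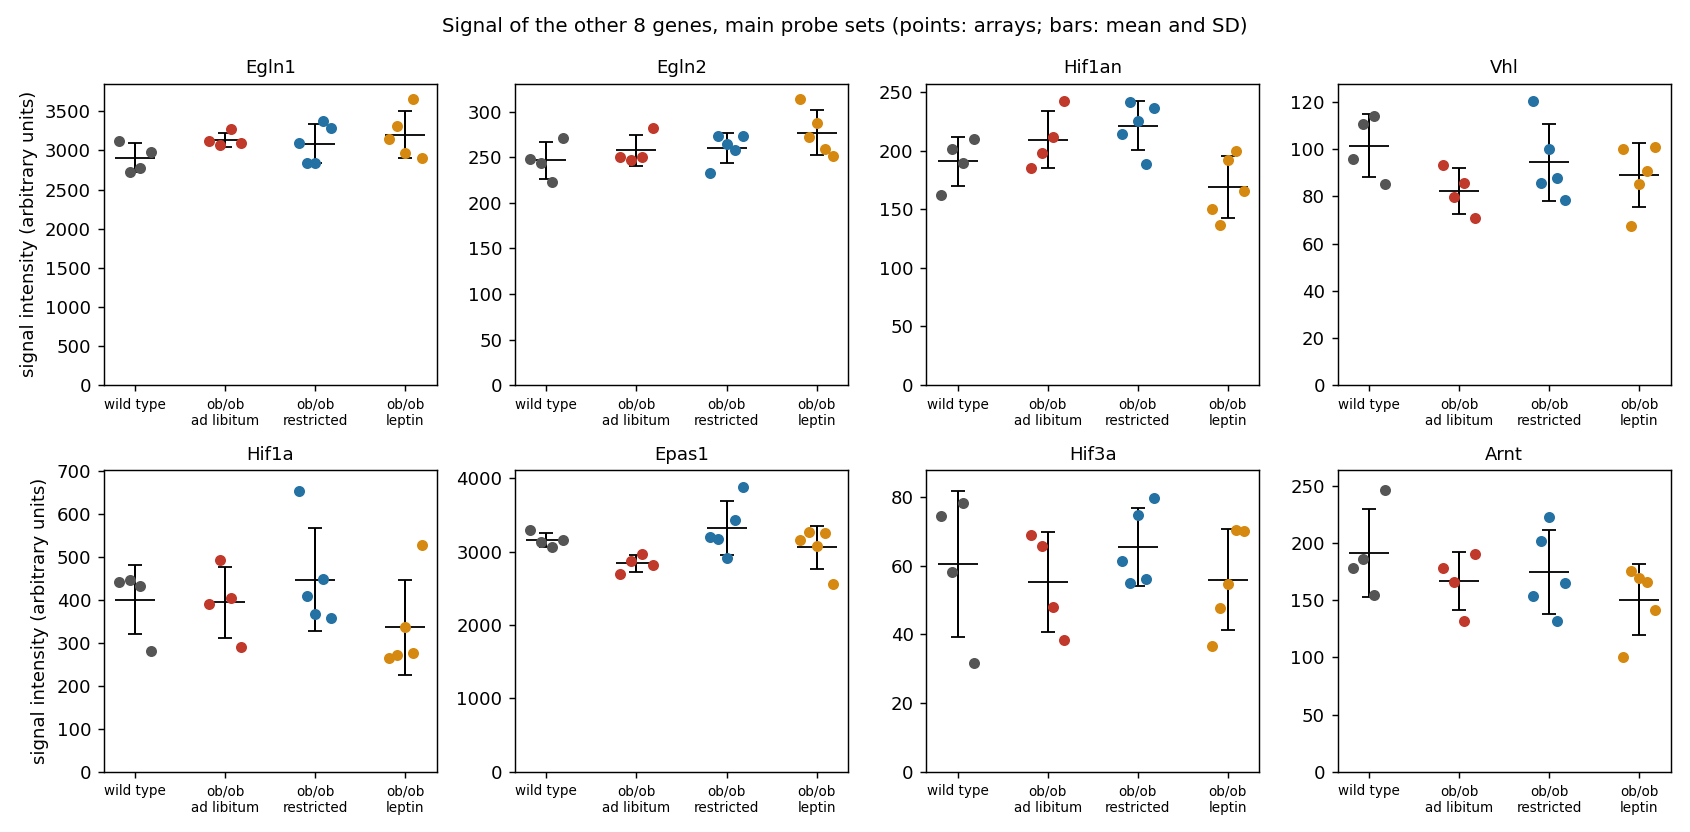
Signal of the main probe set of the other 8 genes (arbitrary units, linear axes from 0) by group, with 1 point per array and bars for the mean and SD. Egln1 and Egln2 are even across groups, and Hif3a is scattered. Hif1an has a lower mean in leptin treated than in restricted hearts, with overlapping arrays.

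In the comparisons of the treated groups with wild type, limma called 0 of the 9 members, and 0 had an unadjusted p under 0.05. The shares of all genes called were 0.00749% for leptin and 11.3% for calorie restriction (5.02% higher and 6.24% lower). Arrays of 0 members were apart in these comparisons, against 3.23% and 13.6% of all genes. The median log2 change of the 9 members lay between -0.12 and 0.079 over the 6 comparisons, and that of all genes between -0.025 and 0.0024.

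**Figure D3:**
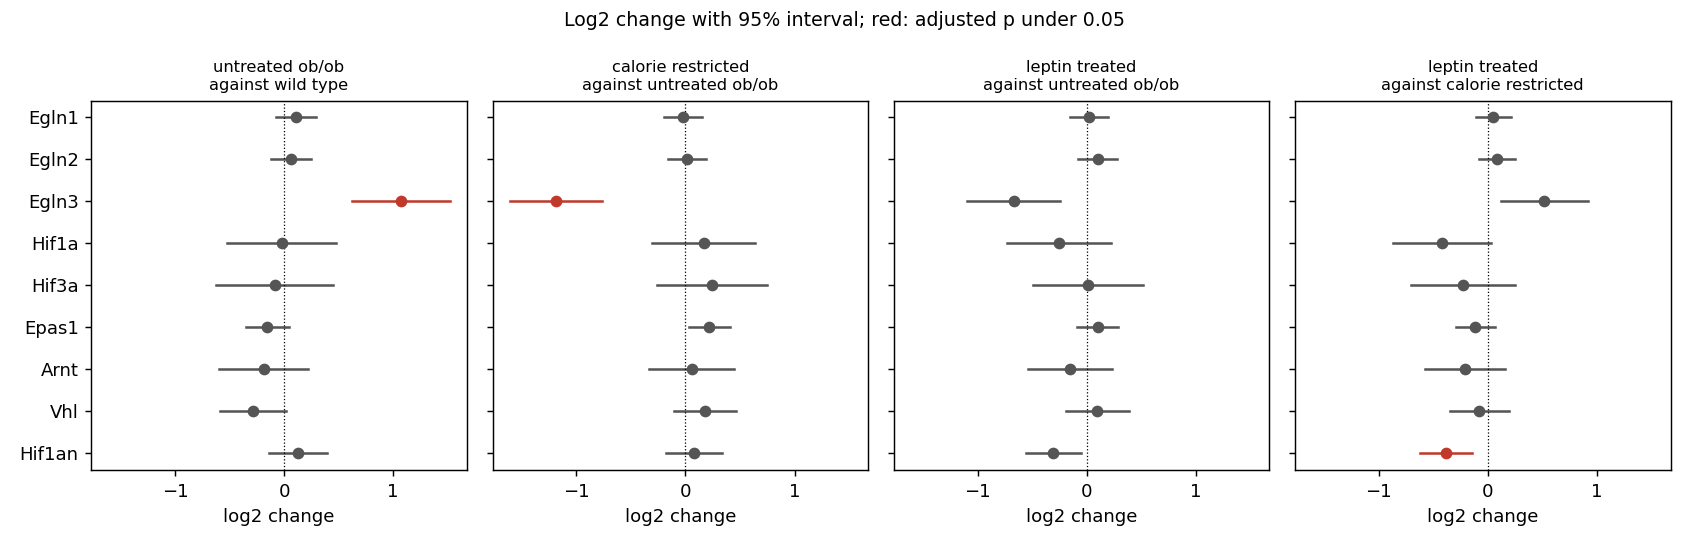
Log2 change of the 9 genes with 95% interval in 4 comparisons, with adjusted p under 0.05 in red. Egln3 stands at 1.07 in untreated against wild type and at -1.19 in restricted against untreated hearts, Hif1an at -0.39 in leptin against restriction, and the other intervals are grey.

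Across the 18 arrays the members did not follow each other closely. Of their 36 pairs, Egln2 and Hif1a had the strongest Pearson correlation of log2 signals (r = -0.73), and Egln1 and Egln3 had 0.56. The genes most like Egln3 over all tested genes were C2cd2 (r = 0.85, and 0.76 for deviations from the group means), Nudt4 (0.81 and 0.77) and Wdr7 (0.79 and 0.52). Those most like Hif1an were Them6 (0.90 and 0.79), Pafah1b1 (0.87 and 0.93) and Dcaf5 (0.85 and 0.73). These correlations describe 18 arrays that share 4 groups and were chosen for their size.

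The partners of Vhl in its ubiquitin ligase, such as the elongins and Cul2, were even. Of 7 tested, limma called 0 in 5 of the 6 comparisons, with 0 to 2 at an unadjusted p under 0.05, and list medians were between -0.025 and 0.038. The exception was Ube2d3, a ubiquitin-conjugating enzyme, which was higher in restricted than in wild type hearts (0.33, adjusted p = 0.0379). This call was lost without any 1 of restricted replicates 2 to 5 or any 1 wild type array, and without the 2 atrial-rich arrays (0.28).

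Of 21 tested regulators of HIF stability and activity outside the members, 2 rose and 1 fell with restriction against untreated hearts, where 5.43% of all genes were called (2.46% higher and 2.97% lower), and 18 did not pass. Sart1, which encodes a factor that promotes degradation of the Hif1a subunit independently of oxygen, rose by 0.49 (adjusted p = 0.00261). Sirt1, a deacetylase that acts on alpha subunits, rose by 0.41 (adjusted p = 0.0278), and Hsp90aa1, the chaperone that stabilises the alpha subunit, fell by 0.55 (adjusted p = 0.00743). The Sirt1 call was lost without any 1 of the 4 untreated arrays or restricted replicates 2, 3 and 5, and without the 2 atrial-rich arrays (0.37, adjusted p = 0.142). With the mean of all probe sets of a gene, the Sart1 and Hsp90aa1 calls were lost too, at 0.23 and -0.37. Both Sart1 (0.54) and Hsp90aa1 (-0.56) were called without the 2 atrial-rich arrays. With leptin against restriction, 2 of the 21 were higher and 5 lower, beside 7.9% and 5.72% of all genes. Leaving out the 2 atrial-rich arrays, 1 was higher and 3 lower, while calls over all genes went from 1819 to 1029. Hsp90aa1 was higher by 0.70 (adjusted p = 3.84e-04). Cops5 and Cited2, a co-activator competitor that HIF induces, were lower, with changes of -0.40 (adjusted p = 9.79e-04) and -0.47 (adjusted p = 0.00560). In untreated against wild type and in leptin against untreated hearts 0 of 21 were called, with 6 and 5 at an unadjusted p under 0.05. In leptin against wild type 0 were called. Restricted against wild type had 5 higher and 1 lower, beside 5.02% and 6.24% of all genes. The lower one was Hsp90aa1 (-0.88, adjusted p = 1.29e-04), and Usp20 (0.67), Cited2 (0.59) and Mtor (0.37) were among the higher. Without the 2 atrial-rich arrays 3 were higher and 1 lower, while calls over all genes went from 1504 to 892.

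Of 12 other proteins with the bHLH-PAS fold that HIFs share, 6 were tested. Limma called 0 higher and 1 lower in untreated against wild type hearts and 1 of each in leptin against untreated hearts. It called 0 and 1 in restricted against untreated and 1 and 2 in leptin against restricted hearts. In leptin against wild type 0 were called, and in restricted against wild type 0 and 1. In that order, 0.299%, 0.644%, 5.43%, 13.6%, 0.00749% and 11.3% of all genes were called. Ahr, the dioxin receptor, which also pairs with Arnt, fell from 148 ± 3.37 in wild type to 101 ± 12.7 in untreated ob/ob hearts (-0.53, adjusted p = 0.0306), and stood at 149.6 ± 7.96 with leptin and 106 ± 12.3 with restriction. Leptin against untreated gave a rise of 0.55 (adjusted p = 0.0102). Leptin against restriction gave 0.48 (adjusted p = 0.00152) and restricted against wild type -0.47 (adjusted p = 0.00329). Without the 2 atrial-rich arrays these were 0.38 (adjusted p = 0.0200) and -0.37 (adjusted p = 0.0340). The call in untreated against wild type was lost without any 1 of untreated replicates 1 to 3 or any 1 wild type array. With the mean of all its probe sets, the Ahr calls in untreated against wild type and leptin against untreated were both lost, at -0.24 and 0.18. Arntl, the clock partner of Clock, fell with both treatments from 188 ± 11.8 in untreated hearts, to 59.2 ± 11.7 with leptin (-1.61, adjusted p = 1.21e-04) and 98.1 ± 16.99 with restriction (-0.92, adjusted p = 0.00197). The restriction value was -0.35 and not called with the mean of all its probe sets, and -0.78 (adjusted p = 0.0152) without the 2 atrial-rich arrays.

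Genes known as HIF targets, in 5 lists without the members, numbered 72 tested. In untreated against wild type hearts 1 was higher and 0 lower, beside 0.112% and 0.187% of all genes. Of the 72, 11 had an unadjusted p under 0.05, and the median change was 0.043 against 0.0022 over all genes. The gene called was Ak4, a mitochondrial adenylate kinase, at 354 ± 27.9 in untreated and 233 ± 25.96 in wild type hearts (0.60, adjusted p = 0.0305). Its call was lost without any 1 of the 4 untreated arrays or wild type replicates 1, 2 and 4, and with the mean of all its probe sets the change was 0.21 (adjusted p = 0.797). Ddit4, an mTOR inhibitor, and Vegfa, the vessel growth factor, differed by 1.12 (adjusted p = 0.117) and 0.58 (adjusted p = 0.167) and were not called. Ldha was higher by 0.34 and Itgb2 lower, with a change of -0.48, and neither was called. Of the 72 genes, 42 had a positive change.

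In calorie restricted against untreated hearts 1 of the 72 rose and 11 fell, while 2.46% of all genes rose and 2.97% fell. The list median was -0.077 and that of all genes -0.0016. In glucose uptake and glycolysis 2 of 19 fell: Pfkl, a phosphofructokinase, from 947 ± 79.1 to 564 ± 87.5 (-0.75, adjusted p = 9.84e-04), and Hk2, a hexokinase, by 0.52 (adjusted p = 0.0105). In vessel growth and tone 4 of 17 fell and 1 rose. Aplnr, the apelin receptor, fell from 271 ± 115 to 35.0 ± 6.81 (-2.72, adjusted p = 2.60e-05), and Angpt1, a vessel-stabilising ligand, rose by 0.87 (adjusted p = 0.00269). Vegfa fell by 0.64 (adjusted p = 0.0264) and its receptor Kdr by 0.64 (adjusted p = 0.0243). The Vegfa call was lost without any 1 of untreated replicates 1, 3 and 4 or restricted replicates 1, 2 and 5, and the Kdr call without any 1 of untreated replicates 3 and 4 or restricted replicate 5.

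In the matrix and collagen modification list, 3 of 9 fell with restriction, 0 rose, and 3 of the 9 had a positive change. Those that fell were the collagen prolyl hydroxylase subunits P4ha1, from 191 ± 39.2 to 106 ± 32.0 (-0.84, adjusted p = 0.0128), and P4ha2 (-0.66, adjusted p = 0.00906) and the lysyl hydroxylase Plod1 (-0.48, adjusted p = 0.0155), enzymes that use iron and 2-oxoglutarate as the Egln proteins do. The P4ha1 and Plod1 calls were lost without untreated replicate 4 (adjusted p = 0.0523 and 0.0567). Of the feedback, transcription and iron or pH list 2 of 18 fell, Ak4 by 0.82 (adjusted p = 1.92e-04) and Jmjd6, a 2-oxoglutarate oxygenase, by 0.46 (adjusted p = 0.0355). The Jmjd6 call was lost without any 1 of the 4 untreated arrays or restricted replicates 1 to 3. With the mean of all probe sets the changes of Ak4 (-0.22), Jmjd6 (-0.27) and Plod1 (-0.25) were not called. In the mitochondria and cell survival list limma called 0 of 9, with 2 at an unadjusted p under 0.05. Without the 2 atrial-rich arrays 5 of the 72 genes fell, while calls over all genes went from 725 to 358. The calls of Hk2, P4ha2, Plod1, Vegfa, Kdr and Jmjd6 were lost. Aplnr was at -2.65, P4ha1 at -0.97, Ak4 at -0.79, Pfkl at -0.65 and Angpt1, which rose, at 0.82. With the atrial or the endothelial marker covariate 4 and 6 genes fell. Endothelial sums were 3657 to 4277 in restricted and 4423 to 5265 in untreated hearts. The endothelial fit thus cannot separate endothelial content from group. Fibroblast and endothelial markers fell in the same hearts (7 of 11 and 2 of 14). Kdr and Tek are in both the vessel and the endothelial list. The part of fibroblast transcripts in these counts was not tested.

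With leptin, 0 of the 72 target genes rose and 3 fell against untreated hearts, where 0.404% of all genes rose and 0.24% fell. Those that fell were Ddit4, from 1622 ± 372 to 547 ± 185 (-1.60, adjusted p = 0.0101), Ak4 (-0.53, adjusted p = 0.0216) and Nt5e, which makes extracellular adenosine (-0.68, adjusted p = 0.0257). The Ak4 call was lost without any 1 of untreated replicates 2 and 4 or leptin replicate 2. That of Nt5e was lost without any 1 of untreated replicates 1, 3 and 4 or leptin replicates 3 and 5. Neither was called with the mean of all probe sets (-0.24 and -0.40). In the direct comparison of leptin with restriction, 13 of the 72 were higher and 5 lower, where 7.9% of all genes were higher and 5.72% lower. Aplnr was higher by 3.68 (adjusted p = 1.03e-07), P4ha1 by 0.91 (adjusted p = 0.00260), Plod1 by 0.73 (adjusted p = 2.24e-04) and Pfkl by 0.64 (adjusted p = 8.71e-04). Ddit4 was lower, with a change of -1.17 (adjusted p = 0.00478). Without the 2 atrial-rich arrays 9 were higher and 3 lower (Aplnr 3.61, P4ha1 1.041, Plod1 0.74, Pfkl 0.54 and Ddit4 -1.29). Calls over all genes went from 1819 to 1029 there. With the endothelial covariate 3 were higher and 1 lower. That fit cannot separate endothelial content from group, since endothelial sums did not overlap between these groups. In the same comparison 7 of 11 fibroblast, 8 of 12 macrophage and 5 of 14 endothelial markers were higher with leptin, and the part of fibroblast and macrophage transcripts was not tested.

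**Figure D4:**
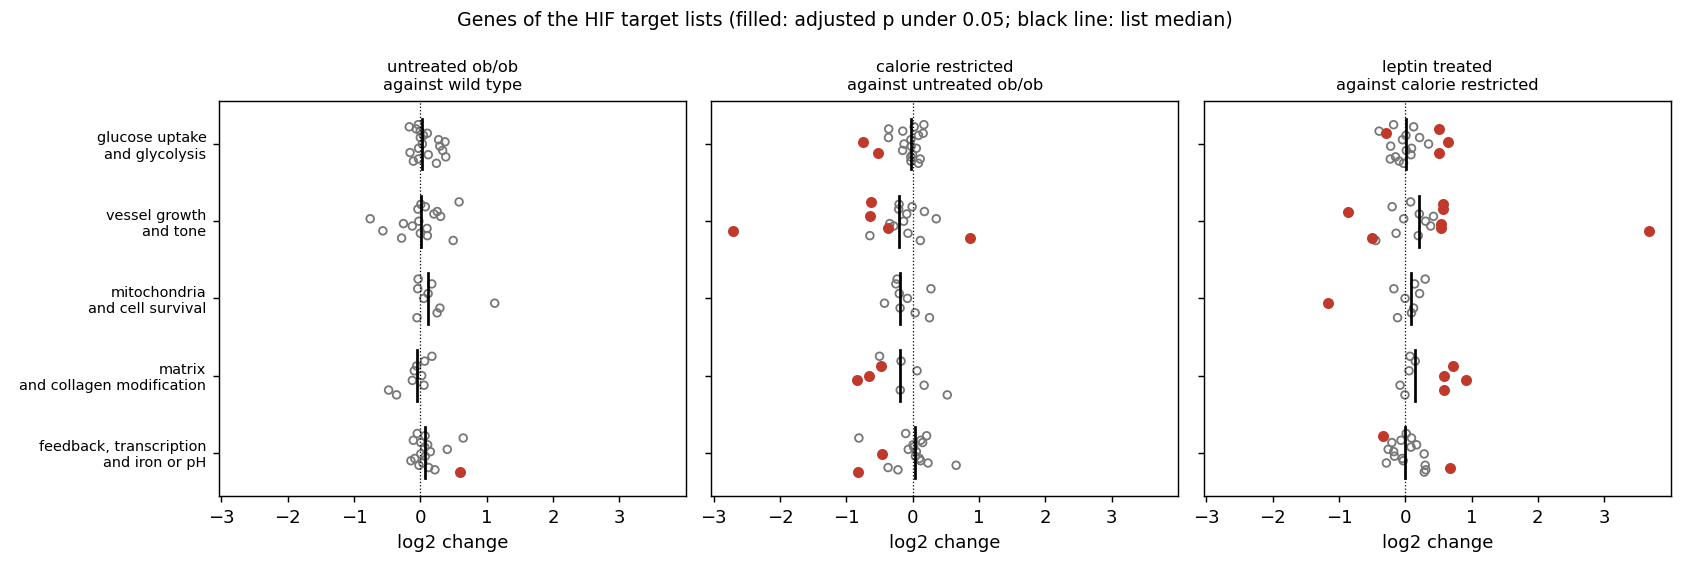
Log2 changes of the 72 tested HIF target genes by list in 3 comparisons, with filled points at adjusted p under 0.05 and a black line at each list's median. Called genes number 1 in untreated against wild type, 12 in restricted against untreated and 18 in leptin against restricted hearts.

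Against wild type hearts, limma called 0 of the 72 with leptin, with 11 at an unadjusted p under 0.05, and 4 higher and 10 lower with restriction, where 5.02% of all genes were higher and 6.24% lower. Leaving out the 2 atrial-rich arrays, 2 were higher and 8 lower, while calls over all genes went from 1504 to 892.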

How the data were processed

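RNA of ventricular myocardium was measured on 18 Affymetrix arrays. The authors' deposited values are linear signal intensities. MAS5 is the tool named in the submitters' processing notes, with no version. With 2% of sets trimmed at either end, each array averaged 100.001, so differences in total signal had been scaled away. Of 45101 probe sets, 64 control sets were left out, 34945 had 1 gene symbol, 932 had several and 9160 were not listed; only the first were used. Values were taken as log2(signal + 5.13), with 5.13 the 20th percentile of all signals, and genes with a mean log2 value under 4.36, the 40th percentile over all probe sets, were left out. This scale understates changes of dim genes.

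With limma 3.58.1 (R 4.3.3), group means were estimated from all 18 arrays in a single model, 6 contrasts were taken, and p-values were adjusted over 13359 genes (Benjamini-Hochberg, two-sided, called under 0.05). The number of arrays limits the precision. Intervals are unadjusted. Members, 8 pathway lists, cell type markers and alternatives were chosen with earlier results of these data known. Named genes were the 9 members, up to 4 called genes with the smallest p per list and contrast (the 1 smallest where none was called), and the 3 genes most correlated with each called member; where fewer are given, the rest lie in the counts. Ddit4, Vegfa, Ldha and Itgb2 in untreated against wild type hearts are named by the same rule. Alternatives covered scaling, pseudocount, filter, probe set choice, samples, covariates, replicate number as a block and variance model. The fit was tested on simulated data.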

Additional observations from a re-analysis of the deposited data

Results flagged for a closer look

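In 6 of 40 groups of arrays examined over 10 probe sets, 1 array lay further from the rest than a Dixon test at the 95% level allows, and chance gives about 1 in 20. For Egln2, untreated ob/ob replicate 4 read 282 while the others read 248 to 251. For Egln3, leptin replicate 4 read 1159 on the main probe set while the others read 563 to 734, and on the other set wild type replicate 3 read 286 while the others read 329 to 330.1. For Hif1a, wild type replicate 4 read 280.4 while the others read 432 to 447, and leptin replicate 5 read 527 while the others read 266 to 338. For Epas1, leptin replicate 5 read 2558 while the others read 3074 to 3267.

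The Hif1an changes from untreated ob/ob hearts under leptin and under calorie restriction differed by -0.39 on the log2 scale (limma adjusted p = 0.0309 for the difference itself), with overlapping arrays. The causes of these values were not tested.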

How the results depend on the processing

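Over the 54 member changes and 1236 alternative values, 1149 kept direction and side of the threshold, 61 changed direction, 25 lost and 1 gained the call; 0 of the direction changes concerned a called change. The cause was not tested. In untreated against wild type, 0 members were called with pseudocount 1, no filter, every probe set, only the 2 groups, the atrial covariate or without restricted replicates 2 and 3 (0 to 1 leaving out each array). In leptin against restriction, 0 were called with the mean of all probe sets, only the 2 groups, either covariate or without those 2 arrays (0 to 1 leaving out each array). Endothelial sums of restricted hearts did not overlap those of leptin treated or untreated hearts. Endothelial covariate values in those comparisons cannot separate endothelial content from group. In leptin against untreated, 0 to 1 were called leaving out each array.

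The mean of all probe sets also took in sets under the filter. For Hif1a in untreated against wild type, the 3 sets above the filter gave -0.084 to 0.00068. Its set under the filter averaged 9.54 in wild type and 21.5 in untreated hearts. Opposite directions appeared as follows. In untreated against wild type, the mean of all probe sets gave Hif1a 0.17, Epas1 0.038, Arnt 0.0043 and Ube2d2a 0.031, and the endothelial covariate gave Egln2 -0.0014, Hif1a 0.15 and Hif3a 0.22; leaving out each array gave Hif1a -0.18 to 0.12 and Hif3a -0.34 to 0.060. In leptin against untreated, Egln1 was -0.052 after quantile normalization, and Hif3a -0.065 with the replicate block, -0.016 with the atrial covariate and -0.019 with array weights; leaving out each array gave Egln1 -0.025 to 0.058 and Hif3a -0.13 to 0.14. In restricted against untreated, the atrial covariate gave Egln1 0.093 and Arnt -0.14, the endothelial covariate Hif1a -0.17 and Hif3a -0.36, and leaving out restricted replicates 2 and 3 Egln1 0.052, Egln2 -0.016 and Arnt -0.14; leaving out each array gave Egln1 -0.059 to 0.0036, Egln2 -0.0021 to 0.060 and Arnt -0.049 to 0.15. In leptin against restriction, the mean of all probe sets gave Cul2 -0.14, the atrial covariate Egln1 -0.035, the endothelial covariate Egln2 -0.11, Hif1a 0.087, Hif3a 0.68 and Vhl 0.083, and leaving out replicates 2 and 3 Egln1 -0.027; leaving out each array gave Vhl -0.14 to 0.0086. In leptin against wild type, the mean of all probe sets gave Hif1a 0.12, Epas1 0.093 and Plod1 -0.19, and the endothelial covariate Hif1a 0.071 and Hif3a 0.55; leaving out each array gave Hif3a -0.33 to 0.064 and Epas1 -0.076 to 0.012. In restricted against wild type, quantile normalization gave Egln1 -0.073 and Epas1 -0.092, the mean of all probe sets Arnt 0.042 and Vhl 0.017, and the endothelial covariate Hif1a -0.016 and Hif3a -0.14; leaving out each array gave Egln3 -0.20 to 0.046, Hif1a -0.013 to 0.22 and Hif3a -0.10 to 0.29.

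Same-numbered arrays did not deviate together (25 pairs, r -0.18 to 0.34, 1 over 0.1). With the replicate number as a block, 0 members were called in untreated against wild type (Egln3 1.07, adjusted p = 0.102) and genes called moved from 40 to 11 there and from 86 to 23 in leptin against untreated; member calls elsewhere were the same. Genes called in untreated against wild type ranged from 8 to 78 over the alternatives, in leptin against untreated from 8 to 166, in restricted against untreated from 287 to 923, in leptin against restricted from 467 to 1981, and in restricted against wild type from 892 to 1888.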
